A study of Homo sapiens with 18 samples.

Results

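The genes described here encode proteins of the red cell membrane: the surface glycoproteins GYPB, GYPC, GYPE and RHAG, the anion exchanger SLC4A1, and the skeletal proteins SPTB, ANK1 and EPB42. They were taken from the RNA count table by their symbols, and all 8 were found among its 55766 genes. All 8 also passed the filter on low counts that left 13786 genes for testing. The cells were K562, an established human leukaemia line with erythroid features, and every group carried a B2M:tdTomato transgene, which includes the code of a red fluorescent protein. In each assay 3 groups were compared, with 3 libraries each. Cells of 1 group were untreated; in the others the transgene had been silenced by DNA methylation directed to the B2M promoter, through TALE proteins in 1 group and dCas9 in the other. The labels describe treatment with 3 plasmids, each for a different ATR, with 1 µg of the D3A-based plasmid and, for dCas9, 250 ng of a guide RNA plasmid. They do not say whether the libraries of a group came from separate cultures or clones, so p-values measure only the spread between these libraries, which may be technical. "Silenced" below means the average of both treated groups, so comparisons with the untreated group share its 3 libraries. RNA levels are given as CPM, a library's counts scaled to a fixed total and adjusted between libraries by TMM factors, and RNA library totals ran from 8460076 to 12050554 counts.

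The red cell keeps its shape through a meshwork of spectrin below the lipid bilayer. Ankyrin ties beta spectrin to the anion exchanger band 3 (SLC4A1), with the help of the protein made from EPB42, and the Rh proteins with RHAG belong to the same assembly. A separate junction, built on actin and the EPB41 protein, holds the skeleton to glycophorin C. In the erythroid lineage many of these genes are read under the control of GATA1, KLF1 and TAL1, and band 3 and the EPB42 protein appear late in maturation.

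Promoters show how closely the glycophorin genes of chromosome 4 resemble each other and which members carry a GATA motif. RefSeq sequences of GRCh38.p14, from 250 bases before to 50 after each start, were found for 6 of the 8 members, in 8 entries. GYPB and GYPE lie near each other on chromosome 4, where gene duplication made the glycophorin cluster. Over 294 aligned bases the GYPB promoter (chr4:144019296-144019595, minus strand, entry 2) and the GYPE promoter (chr4:143905510-143905809, minus strand) were identical at 287, or 97.6%. Capitals in this pair mark the 7 mismatched bases.
GYPB: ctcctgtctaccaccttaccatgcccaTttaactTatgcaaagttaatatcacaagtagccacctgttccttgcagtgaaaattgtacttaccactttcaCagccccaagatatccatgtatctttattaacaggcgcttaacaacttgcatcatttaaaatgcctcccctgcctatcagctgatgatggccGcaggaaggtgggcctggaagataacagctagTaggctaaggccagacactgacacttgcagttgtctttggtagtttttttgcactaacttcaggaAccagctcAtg
GYPE: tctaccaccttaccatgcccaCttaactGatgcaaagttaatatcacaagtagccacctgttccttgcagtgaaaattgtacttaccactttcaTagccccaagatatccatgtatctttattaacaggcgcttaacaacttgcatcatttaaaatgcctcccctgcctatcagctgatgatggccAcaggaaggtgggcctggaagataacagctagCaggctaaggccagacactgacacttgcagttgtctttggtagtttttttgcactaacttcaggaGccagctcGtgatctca
Both hold the same AGATAA, which begins 39 bases before the start in this GYPB entry and 45 bases before it in GYPE, and no mismatch falls in it.

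A GATA motif, searched as AGATAA or TGATAA on both strands, was present in the promoters of 5 of the 6 members with an entry (GYPB, GYPE, SPTB, EPB42 and RHAG). It was present in 16.3% of all 35116 promoters of that length. The CACCC motif (CCACCC, both strands), which KLF1 binds, was present in 5 of the 6 members, all but GYPE, and in 34.3% of all promoters. The E-box (CANNTG) was present in 4 of the 6, not in EPB42 or RHAG, and in 68.7% of all promoters. A member was counted if any of its entries matched, whereas the shares are per promoter, so the 2 are not alike. SPTB entry 2 had no GATA or CACCC match, and GYPB entry 2, shown above, had no CACCC match. The GATA matches of GYPB and GYPE are the same stretch of nearly identical sequence. An E-box can overlap the other motifs, as at the CACCC match of the first GYPB entry. Such matches describe the letters of these windows and are no evidence of binding. Capitals below mark GATA and CACCC matches in the promoters of RHAG (chr6:49636790-49637089, minus strand), EPB42 (chr15:43220969-43221268, minus strand) and SPTB (entry 1, chr14:64879858-64880157, minus strand), shown because they belong to the most abundant member, a scarce one and the spectrin gene. GYPC (chr2:126655908-126656207, plus strand) is shown as the member without a GATA match.
RHAG: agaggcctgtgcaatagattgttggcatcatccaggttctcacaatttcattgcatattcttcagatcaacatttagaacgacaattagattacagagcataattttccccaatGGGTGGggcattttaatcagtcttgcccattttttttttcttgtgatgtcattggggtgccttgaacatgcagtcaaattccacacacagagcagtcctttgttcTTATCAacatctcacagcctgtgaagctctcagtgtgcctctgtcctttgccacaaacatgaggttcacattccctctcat
EPB42: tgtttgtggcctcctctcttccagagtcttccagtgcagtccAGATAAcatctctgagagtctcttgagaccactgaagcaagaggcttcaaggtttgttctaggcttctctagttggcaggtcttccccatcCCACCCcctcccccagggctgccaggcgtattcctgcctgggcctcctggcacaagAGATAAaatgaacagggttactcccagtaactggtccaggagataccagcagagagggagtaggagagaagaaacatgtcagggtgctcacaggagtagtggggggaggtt
SPTB: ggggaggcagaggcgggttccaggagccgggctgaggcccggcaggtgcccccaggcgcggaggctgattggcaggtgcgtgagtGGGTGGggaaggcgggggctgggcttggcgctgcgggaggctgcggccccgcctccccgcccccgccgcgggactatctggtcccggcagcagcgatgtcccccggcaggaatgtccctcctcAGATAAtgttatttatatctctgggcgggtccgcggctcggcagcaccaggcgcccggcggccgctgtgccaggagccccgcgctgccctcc
GYPC: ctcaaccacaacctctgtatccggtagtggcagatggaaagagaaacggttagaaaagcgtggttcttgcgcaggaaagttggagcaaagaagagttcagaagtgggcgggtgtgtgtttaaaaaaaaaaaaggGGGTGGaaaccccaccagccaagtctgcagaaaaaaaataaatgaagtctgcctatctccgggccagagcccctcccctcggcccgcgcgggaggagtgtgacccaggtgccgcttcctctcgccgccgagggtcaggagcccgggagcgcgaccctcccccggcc
In RHAG the GATA match lies on the other strand, 31 bases before the start. EPB42 has 2 GATA matches, 61 and 208 bases before its start, and SPTB has 1 at 42 bases. The GYPC promoter has 18 CpG and a GC content of 57.7%, SPTB has 28 CpG, and GYPB, GYPE, RHAG and EPB42 have 1 or 2 each.

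In untreated cells the members spanned a wide range of levels. Per kilobase of exon, RHAG stood at 264 ± 2.79 CPM per kb (SD, n = 3), GYPC at 72.5 ± 1.77, GYPE at 24.6 ± 1.76, ANK1 at 23.7 ± 1.69, GYPB at 16.4 ± 2.76, SPTB at 4.84 ± 0.423, EPB42 at 0.522 ± 0.144 and SLC4A1 at 0.450 ± 0.111. The ranges of the untreated libraries overlapped for 2 neighbouring pairs in that order, GYPE with ANK1 and EPB42 with SLC4A1, and for no other neighbours. In CPM without regard to length, RHAG ranked 142 and GYPC 594 of the 13786 genes tested, while SLC4A1 ranked 11690 and EPB42 12486. Thus RNA of the Rh-associated glycoprotein was abundant and RNA of band 3 was scarce in the same libraries. The exon length matters for GYPB: with the longest transcript in place of all exons its level was 49.5 CPM per kb, above ANK1 at 30.8 and GYPE at 29.3, and GYPC and RHAG stood at 145 and 345.

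**Figure D1:**
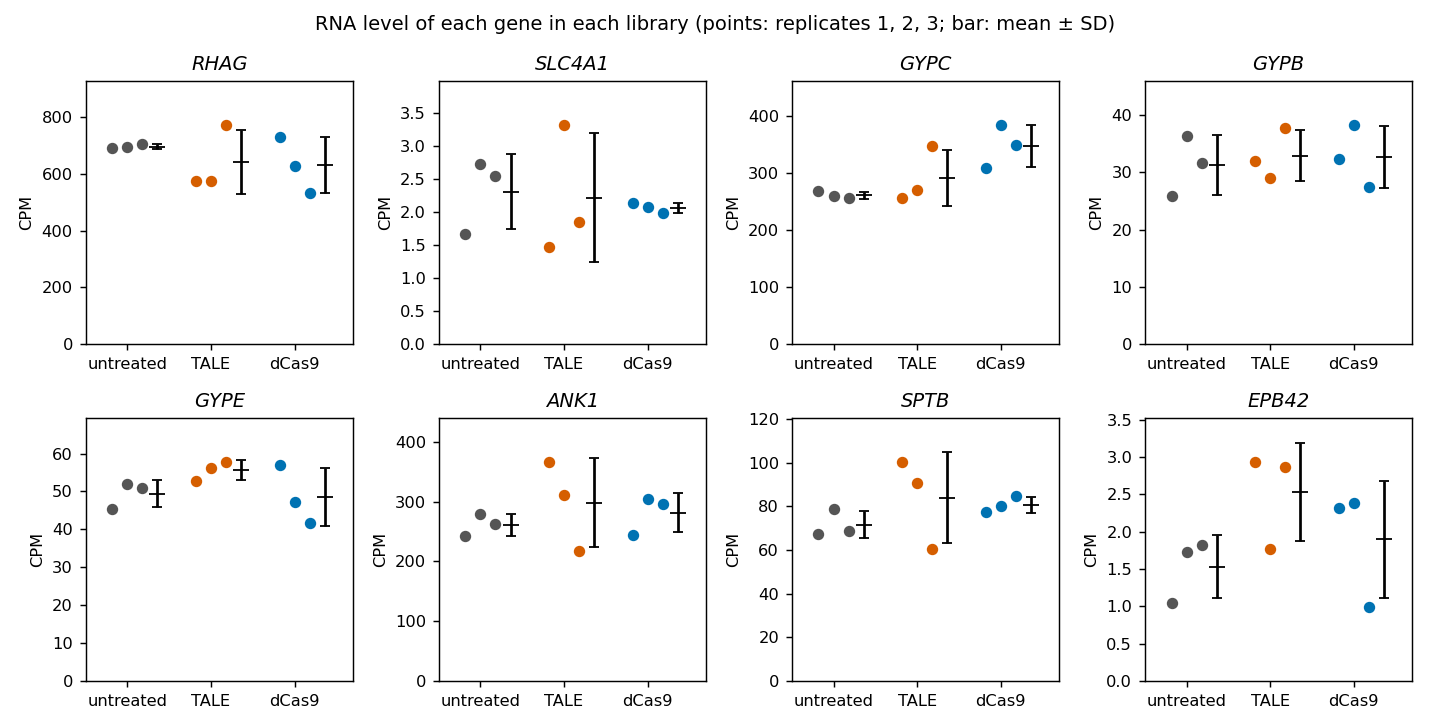
RNA level in CPM (y axis, linear, from 0) of each of the 8 genes in every library, by group; points are replicates 1, 2 and 3 and the bar is the mean ± SD. The 3 dCas9 libraries of GYPC lie above the 3 untreated ones, RHAG varies little in untreated cells and more in both silenced groups, and EPB42 and SLC4A1 have levels of a few CPM.

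None of the 8 genes passed the test in any comparison, so no change in the RNA of the red cell membrane genes was called in TALE-silenced or dCas9-silenced cells. By edgeR's quasi-likelihood test over all genes, the share of genes called against untreated was 0.0218% with TALE, 0.029% with dCas9 and 0.0363% for silenced, and it was 0% between TALE and dCas9. The number of members with an unadjusted p under 0.05 was 0, 1, 1 and 0 in the same order, GYPC each time, beside 7.15%, 5.93%, 6.35% and 6.38% of all genes, and DESeq2 also called 0. Median log2 differences over the members were 0.16, 0.09, 0.11 and 0.07, beside medians of 0.00 over all genes. As a check of the labels, the B2M_tomato entry of the table stood at 379 ± 18.04 CPM in untreated cells, 15.1 ± 2.84 with TALE and 16.3 ± 2.57 with dCas9 (SD, n = 3). This entry sets untreated apart from treated libraries and cannot tell the TALE and dCas9 labels apart.

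Groups without overlap were counted for each comparison. Of the 8 members, 1 (GYPE) had all 3 TALE libraries above all 3 untreated ones, where 12.5% of all genes tested did not overlap in either direction. For dCas9 against untreated it was 1 member (GYPC), beside 11.6% of all genes. Between TALE and dCas9 it was 0 members, beside 9.38% of all genes, and for silenced cells 0 members, beside 3.54%. A share of 1 in 8 is near the background of the first 2 comparisons.

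GYPC encodes glycophorin C, which links the membrane to the skeleton through the EPB41 protein and MPP1. The gene lies at chr2:127413709-127454243 (GRCh37, plus strand). Its RNA stood at 269, 259.6 and 257 CPM in the untreated libraries, at 256, 271 and 348 with TALE, and at 310.1, 385 and 349.6 with dCas9. All dCas9 libraries were above the untreated ones, and with TALE replicate 3 was, and replicate 2 narrowly. The dCas9 difference was 0.41 on the log2 scale (SE 0.136, 95% interval 0.13 to 0.70), a ratio of 1.33. Its p was 0.00731 before and 0.557 after adjustment over all genes, and it ranked 181 among all genes by p, so it did not pass. The exact permutation p was 0.1, the smallest that 3 libraries against 3 allow. For TALE the difference was 0.16 (95% interval -0.13 to 0.44, adjusted p = 0.841), and without TALE replicate 3 it was 0.01. TALE against dCas9 gave -0.26 (95% interval -0.54 to 0.03, adjusted p = 0.808), so the 2 silencing systems were not shown to differ. For silenced against untreated the difference was 0.28 (p = 0.0284, adjusted p = 0.693, exact permutation p = 0.0952), and without TALE replicate 3 it was 0.21.

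GYPB and GYPE encode glycophorins of the chromosome 4 cluster. GYPB carries the S and s blood group antigens, while the red cell role of GYPE is not well defined. GYPB (chr4:144917257-144940533, minus strand, GRCh37) stood at 25.8, 36.3 and 31.7 CPM in untreated libraries, 32.0, 29.0 and 37.7 with TALE, and 32.3, 38.3 and 27.5 with dCas9. The 3 groups overlapped throughout, and the silenced difference was 0.07 (95% interval -0.21 to 0.35, adjusted p = 0.968). GYPE (chr4:144792017-144826716, minus strand, GRCh37) stood at 45.4, 52.0 and 50.8 CPM untreated, 52.7, 56.3 and 57.9 with TALE, and 56.9, 47.2 and 41.7 with dCas9. Every TALE library was above every untreated one, narrowly for TALE replicate 1, and the dCas9 libraries overlapped both groups. The TALE difference was 0.17 (SE 0.123, 95% interval -0.09 to 0.43, adjusted p = 0.805). Of the 50-base windows of the longest GYPB transcript, 9.95% also occur in transcripts of other genes, and 3.77% occur in GYPE. For GYPE, 1.04% of windows also occur in GYPB. Reads from those stretches could be split between the genes or dropped, depending on a counting rule that is not given in the sources used here.

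RHAG encodes the Rh-associated glycoprotein, which carries the Rh proteins to the membrane and conducts ammonia. The gene lies at chr6:49572888-49604552 (minus strand, GRCh37). Its RNA stood at 689.7, 692 and 704 CPM in untreated libraries, 575, 576 and 772 with TALE, and 728, 628 and 533 with dCas9. Untreated libraries were close together, with a coefficient of variation of 1.06%, against 17.7% with TALE and 15.5% with dCas9, and both silenced groups reached above and below them. Differences from untreated were -0.12 for TALE (95% interval -0.44 to 0.20, adjusted p = 0.895) and -0.14 for dCas9 (95% interval -0.46 to 0.18, adjusted p = 0.974). Without TALE replicate 3 the first was -0.27, and it was -0.04 without TALE replicate 1 and -0.05 without replicate 2. The dCas9 difference was -0.26 without dCas9 replicate 1 and -0.04 without replicate 3. The difference in spread between groups was not tested.

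SLC4A1 encodes band 3, the chloride-bicarbonate exchanger and main anchor of the skeleton, at chr17:42325758-42345509 (minus strand, GRCh37). It received only 15 to 43 counts per library. Levels were 1.66, 2.72 and 2.54 CPM untreated, 1.47, 3.31 and 1.85 with TALE, and 2.13, 2.07 and 1.98 with dCas9. All groups overlapped, and the silenced difference was -0.07 with a 95% interval from -0.72 to 0.57 (adjusted p = 0.987). At this depth the interval is wide, and a change in either direction within it is not excluded. EPB42, the band 3 binding protein related to transglutaminases, lies at chr15:43489425-43513216 (minus strand, GRCh37) and received 10 to 31 counts. Its levels were 1.05, 1.73 and 1.82 CPM untreated, 2.94, 1.77 and 2.87 with TALE, and 2.32, 2.38 and 0.991 with dCas9. The TALE difference, 0.74 on the log2 scale, was the largest of any member, but its 95% interval ran from -0.07 to 1.55 and its adjusted p was 0.732. Of its transcript windows, 16.7% also occur in other genes, and 15.2% of its exon bases are shared with another annotated gene on the same strand.

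ANK1 encodes erythroid ankyrin, at chr8:41510739-41754259 (minus strand, GRCh37). Its RNA stood at 242, 279 and 262 CPM untreated, 367, 310.4 and 218 with TALE, and 244, 304 and 297 with dCas9. The TALE group held both the highest and the lowest of the 9 libraries. Its TALE difference was 0.20 (95% interval -0.14 to 0.53, adjusted p = 0.830; 0.02 without TALE replicate 1 and 0.38 without TALE replicate 3) and its dCas9 difference 0.11 (95% interval -0.23 to 0.45, adjusted p = 0.994; 0.20 without dCas9 replicate 1, 0.05 without dCas9 replicate 2 and 0.06 without untreated replicate 1). SPTB encodes beta spectrin, the partner of alpha spectrin in the skeleton's tetramers, at chr14:65213001-65346625 (minus strand, GRCh37). Its levels were 67.2, 78.7 and 68.7 CPM untreated, 100.4, 90.7 and 60.6 with TALE, and 77.5, 80.02 and 84.5 with dCas9. Again TALE replicates 1 and 3 were the extremes. The differences were 0.23 for TALE (95% interval -0.08 to 0.55, adjusted p = 0.784; 0.09 without TALE replicate 1 and 0.42 without TALE replicate 3) and 0.17 for dCas9 (95% interval -0.14 to 0.49, adjusted p = 0.965). Of the SPTB exon bases, 23.0% overlap PLEKHG3 on the other strand, so reads there cannot be told apart unless the counting used strand.

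**Figure D2:**
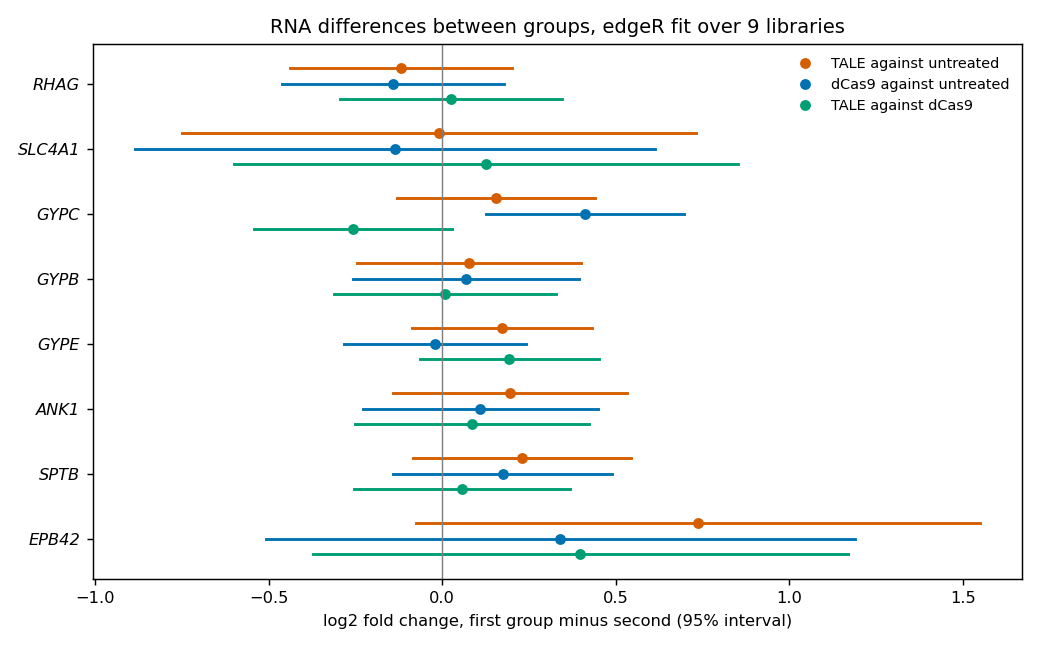
Log2 fold change of each gene (x axis, first group minus second) with its 95% interval, for 3 comparisons in colour, from the edgeR fit over 9 libraries. The GYPC interval for dCas9 against untreated (0.13 to 0.70) is the only one of the 24 drawn that does not reach 0, and EPB42 and SLC4A1 have the widest intervals.

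The libraries ordered ANK1 and SPTB alike, while an opposite order of RHAG did not pass the test. Over the 9 libraries, log2 CPM of SPTB and ANK1 had a Pearson r of 0.932 (exact permutation p = 0.000416, adjusted p = 0.0117 over 28 pairs of members) and a Spearman rho of 0.967 (exact permutation p = 0.000165, adjusted p = 0.00463). Without the 2 libraries farthest from the SPTB median, r was 0.805. RHAG had r = -0.834 with ANK1 and r = -0.817 with SPTB, with rho of -0.80 and -0.83. Both RHAG relations had an adjusted permutation p of 0.0694 for r, and of 0.129 and 0.116 for rho, so they did not pass. Their r without the 2 farthest libraries was -0.794 and -0.727. These permutations treat the 9 libraries as exchangeable, without regard to group. Groups of 3 libraries are too small for a value within each group. In TALE replicate 3, ANK1 and SPTB were 0.34 and 0.36 below their mean over the libraries, on the log2 scale, and RHAG was 0.25 above its own. In TALE replicate 1, ANK1 and SPTB were 0.40 and 0.37 above and RHAG 0.18 below. In dCas9 replicate 3, RHAG was 0.29 below while ANK1 and SPTB were 0.10 and 0.12 above.

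Median levels by transcript length and base composition also moved between libraries. The longest transcripts of SPTB and ANK1 measure 10177 and 8457 bases with 59.2% and 58.6% GC, and that of RHAG 2014 bases with 42.2% GC. Over all 2298 tested genes with a transcript longer than 6000 bases, the median deviation was 0.12 in TALE replicate 1, -0.13 in TALE replicate 3 and -0.09 in dCas9 replicate 1. Over the 2434 genes with one under 2000 bases it was -0.13, 0.15 and 0.11. RHAG itself falls in the classes of 2000 to 6000 bases, with medians of 0.01, 0.002 and 0.01 in those libraries, and of under 45% GC, with 0.02, 0.04 and 0.02. In dCas9 replicate 3, where RHAG was low, the medians were only 0.02 over 6000 bases and -0.03 under 2000 bases. There the 2 classes of RHAG had medians of 0.007 for length and -0.07 for GC. Long genes with over 55% GC (254 genes) had medians of -0.14, 0.12 and 0.06 in untreated replicates 1, 2 and 3. They were 0.11, 0.04 and -0.30 with TALE, and -0.13, -0.004 and 0.23 with dCas9. In untreated replicate 3 ANK1 and SPTB went the other way, at -0.08 and -0.18. The part of length and composition in the relations between members was not tested.

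**Figure D3:**
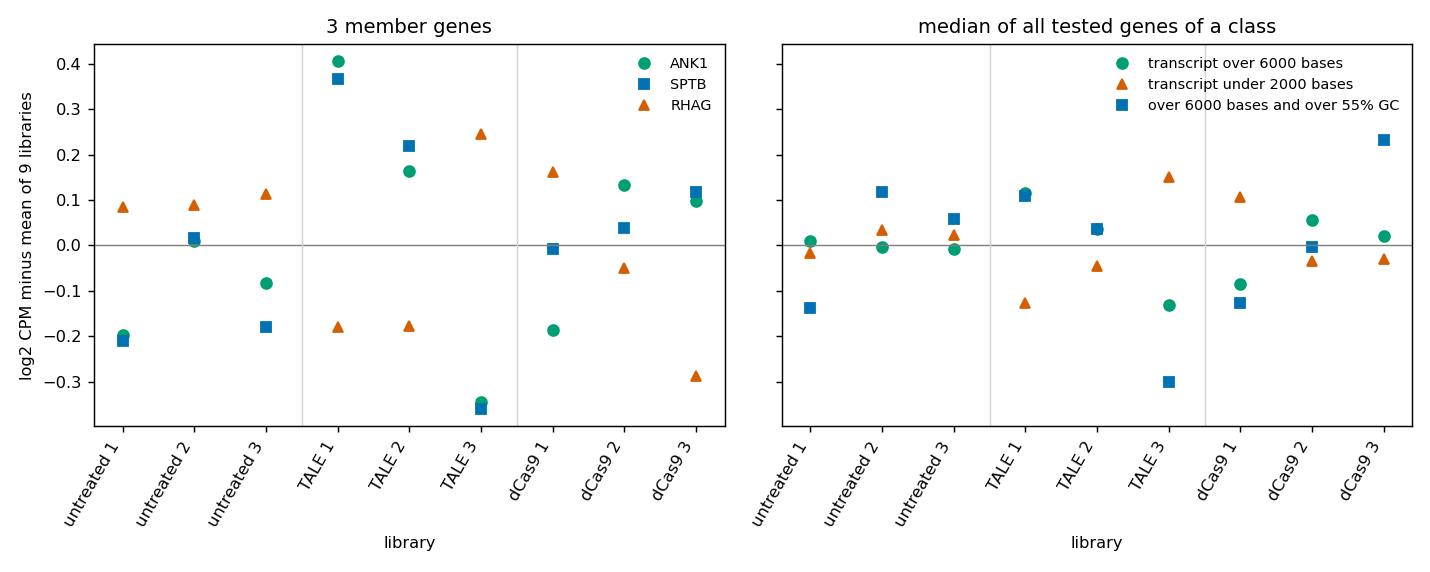
Deviation of log2 CPM from the mean of 9 libraries (y axis) in each library (x axis), for ANK1, SPTB and RHAG on the left and for the median of all tested genes by transcript length and GC on the right. ANK1 and SPTB are lowest and RHAG highest in TALE replicate 3, where genes with long GC-rich transcripts, the class of ANK1 and SPTB, have a median of -0.30. In untreated replicate 3 that class has a median of 0.06, while ANK1 and SPTB lie below their own means. RHAG, at 2014 bases, is not in the class under 2000 bases.

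The genes whose levels followed a member most closely over the 9 libraries were listed by Pearson r, as a description. For SPTB the closest was ADD2 (r = 0.969), which encodes beta adducin, another protein of the spectrin skeleton, followed by DYNC1LI2 (0.964). ANK1 was closest to CHD4 (0.983), WWP2 (0.979) and KAT6A (0.976). RHAG was closest to CTD-2037K23.2 (0.988), LYPLA1 (0.988) and TEFM (0.984), and GYPC to LINC00888 (0.969), SUPT7L (0.960) and H2BFS (0.959). GYPB was closest to CETN3 (0.955), GYPE to CCDC77 (0.931), EPB42 to SLC22A4 (0.948) and SLC4A1 to ZFP36L1 (0.932). Libraries share depth, length and composition effects across genes, and the highest of 13786 correlations over 9 libraries is high by construction.

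Other genes of the same structures were taken from 3 lists. Of 28 listed genes of the spectrin-actin skeleton, 25 were tested and 0 were called in any of the 4 comparisons by edgeR. The list's median log2 differences were -0.01, -0.03, -0.07 and 0.02 for TALE, dCas9, TALE against dCas9 and silenced, beside 0.00 over all genes. At an unadjusted p under 0.05 the silenced comparison had 1 higher and 1 lower. PALM, a membrane-bound phosphoprotein, had 6.90 to 7.42 CPM in untreated libraries, 5.88 to 10.6 with TALE and 11.2 to 15.7 with dCas9. Its dCas9 libraries lay above both other groups (dCas9 against untreated 0.91, SE 0.208, p = 0.000382, adjusted p = 0.208, exact permutation p = 0.1). DESeq2 called it in that comparison (adjusted p = 0.0474). Over all genes tested, 11.6% did not overlap there in either direction. ANK3, a second ankyrin, had 34.6 to 43.6 CPM untreated, 26.0 to 31.4 with TALE and 31.1 to 38.4 with dCas9 (TALE -0.39, adjusted p = 0.577).

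Of 47 listed genes of the red cell surface and transport, 39 were tested and 0 were called in any comparison by edgeR. Their medians were 0.01, 0.06, -0.01 and 0.03, and in the silenced comparison 2 were higher and 1 lower at an unadjusted p under 0.05. CA1, the cytosolic carbonic anhydrase of red cells that supplies bicarbonate to band 3, had 23.2 to 25.2 CPM in the 3 untreated libraries and 33.0 to 43.7 in the 6 silenced ones, with no overlap. The silenced difference was 0.61 (SE 0.119, p = 7.44e-05, adjusted p = 0.0821), and its exact permutation p of 0.0119 is the smallest that 6 libraries against 3 allow. CA1 did not pass by edgeR, but DESeq2 called it (adjusted p = 0.0068), as did edgeR without TALE replicate 3 (adjusted p = 0.0416). CD47, the marker that keeps red cells from being engulfed, had 55.2 to 60.1 CPM untreated and 40.0 to 52.5 silenced, again without overlap (-0.32, SE 0.1002, adjusted p = 0.459, exact permutation p = 0.0119). CA1 and CD47 were picked as the list's lowest p in this same comparison, where 3.54% of all genes tested did not overlap. Of 18 erythroid regulators, 17 were tested and 0 were called in any comparison by edgeR, with medians of 0.02, 0.06, 0.08 and 0.03. LMO2, a bridging protein of the GATA1 and TAL1 complex, had 40.5 to 49.0 CPM untreated and 40.9 to 65.7 silenced (0.30, adjusted p = 0.737). SPI1, a myeloid factor that opposes GATA1, had 31.9 to 34.9 CPM untreated and 30.5 to 51.5 silenced (0.21, adjusted p = 0.841).

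The cell type was checked with markers. All 12 erythroid markers were tested, and their summed level was 8360 to 8986 CPM untreated, 6643 to 10518 with TALE and 6822 to 10067 with dCas9. Of 9 megakaryocyte markers, 2 passed the count filter, and GP9 and GP1BB were at 0 counts in all libraries. Of 8 myeloid markers 3 passed (77.0 to 83.8, 66.3 to 95.03 and 83.8 to 98.6 CPM in the 3 groups), and of 7 fibroblast and epithelial markers 5 did (446 to 497, 456 to 569 and 512 to 518). For the fibroblast and epithelial markers the dCas9 sums lay above the untreated ones, and the TALE sums overlapped them. Among single genes, 11.6% of those tested did not overlap for dCas9 against untreated. No marker sum was tested. The 7 lymphoid markers summed to 308 to 342 CPM untreated, 225 to 272 with TALE and 212 to 249 with dCas9, so both silenced groups lay below the untreated one. PTPRC, which K562 also expresses, made up most of that sum (283 to 316, 207 to 245 and 181 to 221 CPM), and 2 of the 7 markers passed the filter. Over all genes tested, 3.54% did not overlap for silenced against untreated, in either direction. CD3D did not share the fall, at 22.7 to 24.1 CPM untreated, 14.8 to 25.0 with TALE and 21.2 to 29.6 with dCas9, so its groups overlapped. The part of shifts in the marker sums in the members' values was not tested. In bulk RNA, fewer cells of a type and less RNA per cell cannot be told apart.

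MeDIP-seq reads DNA that an antibody to methylated cytosine has pulled down, and was used to describe methylation at the same genes. Of 198884 regions in the deposited table, 124 overlapped a member or the 2000 bases before its start, and each of the 124 overlapped a deposited peak of at least 1 library. ANK1 had 48 of them, SPTB 38, GYPC 17, GYPE 8, RHAG 6, GYPB 4, EPB42 2 and SLC4A1 1. Most were intronic (88), 35 touched an exon and 1 lay upstream of a gene. A peak was present in all 9 libraries for 29 regions and in 1 library for 11. Only 1 region fell between 2000 bases before and 500 after a gene start, taken as the outermost annotated start. At those outermost starts of the other 7 genes the table holds no region. Counting every annotated transcript start, 11 regions fell in such a window: 5 at ANK1, 4 at SPTB and 1 each at GYPC and RHAG. The median CpG density was 2.61 per 100 bp, beside 2.81 over all regions. MeDIP library totals ran from 2529729 to 4492751 counts, and 60 of the 124 regions passed the filter on low counts, including 0 of the 8 at GYPE.

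None of the 60 regions was called in any comparison by edgeR. Over all 105652 regions tested the share called against untreated was 0% with TALE, 0.000947% with dCas9 and 0% for silenced, and it was 0.000947% between TALE and dCas9. Regions at members with an unadjusted p under 0.05 numbered 3, 4, 3 and 5 of 60 in that order, beside 4.74%, 4.69%, 4.88% and 4.47% of all regions tested. Groups did not overlap at 6, 8, 0 and 6 of the 60 regions. The shares without overlap over all regions tested were 10.2%, 10.3%, 2.45% and 9.97%. Summed over its regions, ANK1 had 363 ± 4.66 CPM untreated, 375 ± 12.98 with TALE and 374 ± 18.7 with dCas9 (SD, n = 3), and RHAG had 66.9 ± 9.79, 73.1 ± 0.335 and 64.7 ± 5.91.

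**Figure D4:**
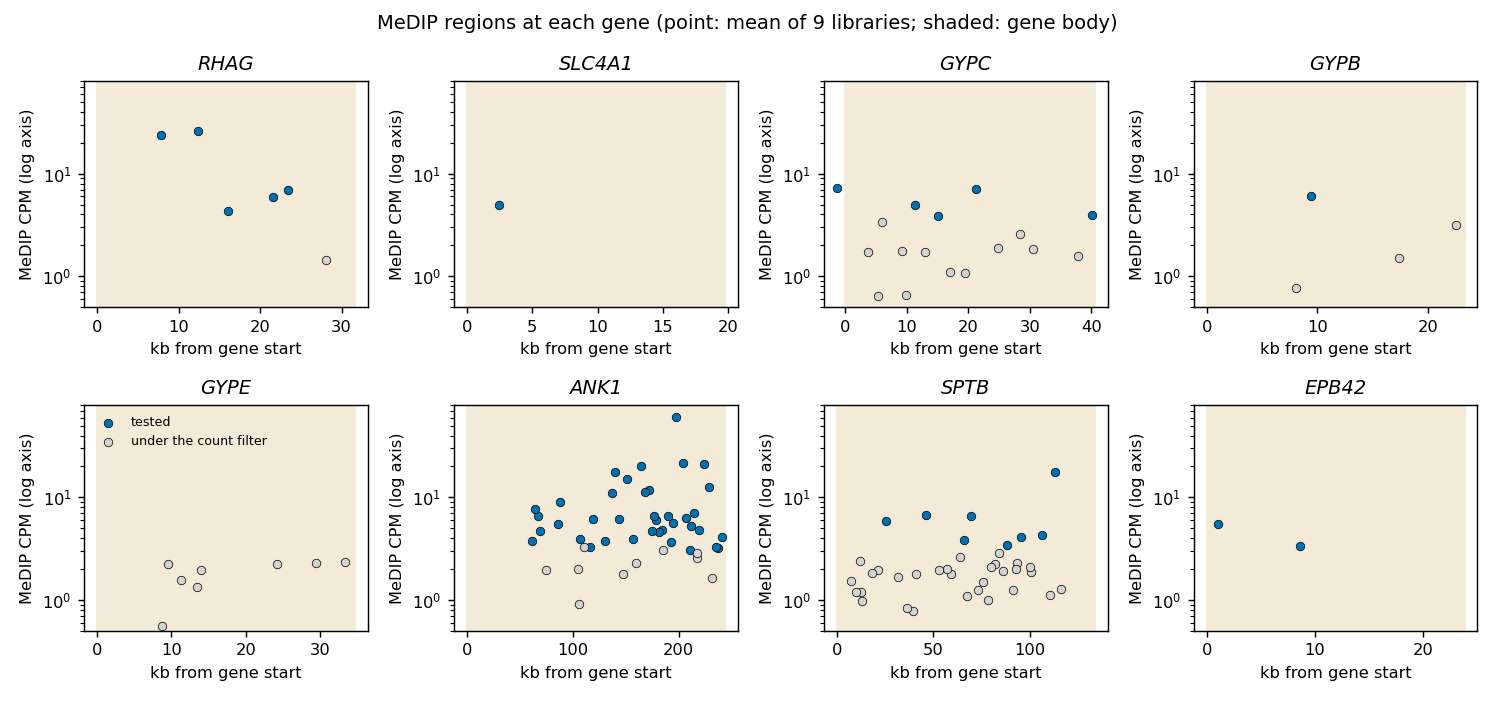
Mean MeDIP CPM over 9 libraries (y axis, log scale) of every region at each gene against its distance from the gene start in kb (x axis), with the gene body shaded; blue regions were tested and grey ones fell under the count filter. ANK1 holds the region with the highest CPM, which is also the longest, far from the outermost start of the gene. GYPC holds the only region before such a start.

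The region upstream of GYPC is the only one near the outermost start of a gene, and it carried a deposited peak in all 9 libraries. Counts were 12, 17 and 10 in untreated libraries, 23, 22 and 29 with TALE, and 28, 22 and 15 with dCas9, or 3.69, 7.22 and 3.11, 10.6, 8.64 and 7.97, and 11.1, 5.71 and 6.48 CPM. The TALE libraries lay above the untreated ones, and the dCas9 libraries overlapped them. Differences on the log2 scale were 0.99 for TALE (SE 0.371, 95% interval 0.25 to 1.72, p = 0.00923, exact permutation p = 0.1) and 0.75 for dCas9 (SE 0.377, 95% interval 0.005 to 1.502, p = 0.0487, exact permutation p = 0.3). Both had an adjusted p of 1.00, so neither passed. TALE against dCas9 gave 0.23 (95% interval -0.45 to 0.92, adjusted p = 1.00). For silenced against untreated the difference was 0.87 (p = 0.0100, adjusted p = 1.00, exact permutation p = 0.0476), and it was 0.64 without untreated replicate 3. With 10 to 29 counts per library, counting error alone is large. The log2 differences of GYPC RNA from untreated were 0.16 for TALE and 0.41 for dCas9.

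The region with the highest CPM, at ANK1 (chr8:41552092-41556614, GRCh37, exon and intron, coding sequence included), is also the longest of the 124, at 4523 bp with 139 CpG, and overlaps the start of a shorter ANK1 transcript. It stood at 47.6, 68.3 and 58.5 CPM untreated, 68.8, 66.7 and 56.6 with TALE, and 55.3, 59.7 and 68.2 with dCas9, with 1557 counts over the libraries. The groups overlapped. In these libraries the region carried a peak throughout, beside ANK1 RNA that ranked 597 of the genes tested. In RHAG, an intronic region of 2238 bp (chr6:49589968-49592205) stood at 20.9 to 31.8 CPM untreated, 25.9 to 28.6 with TALE and 17.3 to 29.6 with dCas9.

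At the other genes the tested region with the lowest p for silenced against untreated was named, out of 8 at SPTB and 38 at ANK1. Low p-values and separated groups there follow in part from that choice. Over all regions tested, 10.3% did not overlap for dCas9 against untreated and 9.97% between TALE and dCas9. At SPTB an intronic region of 302 bp (chr14:65258009-65258310, GRCh37) stood at 3.99, 8.06 and 2.80 CPM untreated, 2.31, 4.71 and 4.94 with TALE, and 1.58, 0.779 and 1.73 with dCas9. The dCas9 libraries, with 3 or 4 counts each, lay below both other groups (dCas9 against untreated -1.86, SE 0.627, p = 0.00385; TALE against dCas9 1.63, p = 0.0126; exact permutation p = 0.1 and adjusted p = 1.00 for each). At EPB42 an intronic region 1049 bases after the start (chr15:43511920-43512167, GRCh37) stood at 3.07, 2.12 and 5.61 CPM untreated, 2.77, 7.07 and 7.42 with TALE, and 6.72, 9.09 and 5.61 with dCas9. Its dCas9 libraries were all above the untreated ones, by a very small margin for replicate 3 (0.97, SE 0.406, p = 0.0187, adjusted p = 1.00, exact permutation p = 0.1). At RHAG an intronic region (chr6:49580688-49581120) stood at 3.07, 5.52 and 8.10 CPM untreated, 6.93, 8.64 and 4.39 with TALE, and 9.09, 8.57 and 8.20 with dCas9. The silenced difference there was 0.43 (adjusted p = 1.00). Regions in ANK1 (chr8:41519266-41519561, exon and intron, -0.81), GYPB (chr4:144930805-144931098, intron, 0.23) and SLC4A1 (chr17:42342861-42343082, intron, 0.01) had overlapping groups in the silenced comparison, each with an adjusted p of 1.00.

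**Figure D5:**
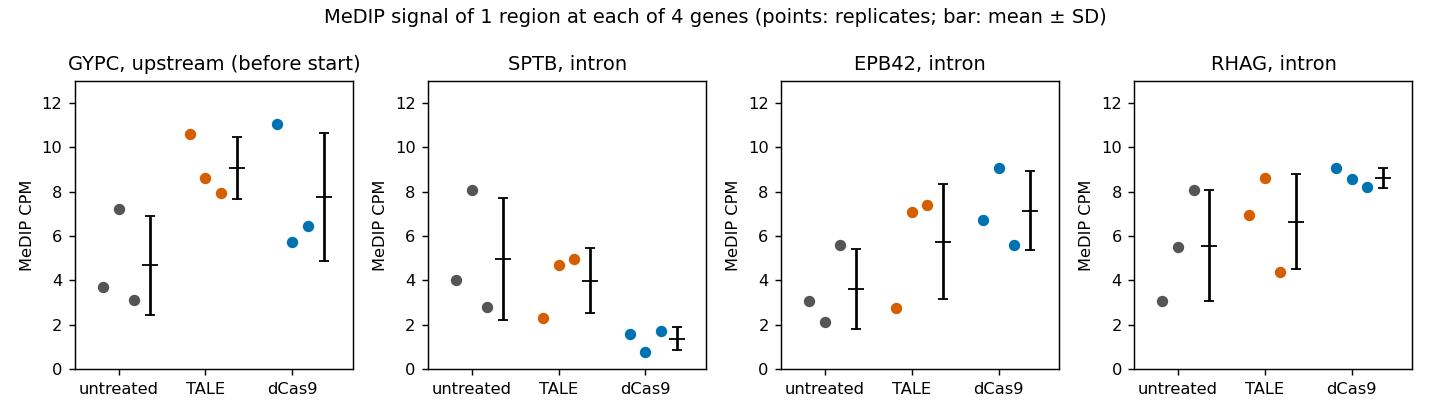
MeDIP CPM (y axis, linear, from 0) of 1 region at GYPC, SPTB, EPB42 and RHAG in each library by group; points are replicates and bars the mean ± SD. The regions at SPTB, EPB42 and RHAG were picked as the gene's lowest p for silenced against untreated. The TALE libraries at GYPC lie above the untreated ones and the dCas9 libraries at SPTB lie below both other groups, and neither passed the test over all regions.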

How the data were processed

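RNA-seq and MeDIP-seq were each available for 9 libraries (18 samples), grouped by the sample titles. The authors' deposited tables hold raw counts per gene and per region. Per the submitters' processing notes, STAR 2.3.0 aligned RNA, and BWA 0.7.5, Picard, MACS2 and bedtools handled MeDIP, on hg19. The counter, annotation, use of strand and rule that set the regions are not given in the sources used here. The deposited peak lists give a score, a fold enrichment and −log10 of p and q per peak, and were used only to say which libraries carried a peak. Here edgeR 4.0.16 (TMM, filterByExpr with a minimum of 10 counts, quasi-likelihood test, Benjamini-Hochberg threshold 0.05) was fitted to all 9 libraries of an assay. DESeq2 1.42.0 served as an alternative for RNA. The edgeR fit of each assay was tested on simulated data for TALE against untreated, and the DESeq2 fit was not. GENCODE 44 lifted to GRCh37 gave positions and lengths. The members and gene lists were chosen with earlier results of these data known. From each list, genes called or otherwise the 2 with the lowest p for silenced against untreated were named, and for each gene the regions at its start or otherwise the one with the lowest p. Exact permutation tests are two-sided. All value columns were matched to a sample by name. Of the most correlated genes 1, and of the regions the sequence of 1, are not reported here.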

Additional observations from a re-analysis of the deposited data

How the results depend on the processing

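Members called stayed at 0 in each comparison, and so did regions at members, under every alternative run: other scaling, no filter or at least 10 counts in every library, the replicate block, only the groups compared, each library left out and, for RNA, DESeq2. With the replicate number as a block, 3, 2, 0 and 4 genes were called over the whole table for TALE, dCas9, TALE against dCas9 and silenced, against 3, 4, 0 and 5 without it, and members called stayed at 0. Same-numbered libraries had correlations of deviations from -0.284 to 0.103, and libraries of different numbers from -0.136 to 0.249. Libraries correlated best with their own number in 8 of 18 comparisons. With 3 libraries per group, these values cannot show whether the numbers pair the samples. The spectrin-actin list had 1 gene called for dCas9 (PALM) with no filter and with DESeq2. The surface list had 1 called (CA1) for TALE, dCas9 and silenced with no filter, and 1 for silenced with DESeq2 and without TALE replicate 3. Signs turned for small differences: SLC4A1 for TALE was 0.026 with no filter, and GYPB for TALE against dCas9 was -0.014 with upper-quartile factors and -0.00338 with at least 10 counts in every library. Leaving out single libraries, these ranges crossed 0. For TALE against dCas9 they were -0.088 to 0.27 (ANK1), -0.11 to 0.14 (GYPB), -0.13 to 0.14 (RHAG), -0.31 to 0.34 (SLC4A1) and -0.088 to 0.25 (SPTB). For TALE they were -0.047 to 0.20 (GYPB) and -0.44 to 0.21 (SLC4A1), for dCas9 -0.059 to 0.19 (GYPB) and -0.15 to 0.079 (GYPE), and for silenced -0.052 to 0.19 (GYPB), -0.29 to 0.063 (SLC4A1) and -0.16 to 0.22 (the SLC4A1 region). The cause was not tested.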
